A study of Mus musculus with 5 samples.

Results

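The subject here is a set of 10 marker genes of pericytes and vascular smooth muscle cells: Acta2, Tagln, Myh11, Cnn1, Rgs5, Pdgfrb, Mcam, Cspg4, Kcnj8 and Abcc9. They were picked out by gene symbol, with earlier results of these data known. All 10 were found among the 11194 genes of the table. The values come from 5 anti-Staufen1 RNA immunoprecipitates of mouse skeletal muscle stem cells, which the series describes as quiescent. 3 libraries had the genotype label Stau+/+ (wild type 1 to 3) and 2 had the label Stau-/- (knockout 1 and 2). Both groups received the same antibody, and no input RNA library was used here. The labels give neither the age or sex of the mice nor how the allele was made. Nor do they tell if replicates were different animals, so the p-values below speak only of the spread among these 5 libraries, part of which may be technical.

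Pericytes and smooth muscle cells are the mural cells of blood vessels: they wrap the endothelial tube, smooth muscle cells around arteries and veins and pericytes around capillaries. Smooth muscle cells contract with a dedicated set of actin, myosin and actin-binding proteins, whereas pericytes are held to the endothelium through the PDGF-B ligand and its receptor. In skeletal muscle these cells lie beside the muscle fibres, close to the stem cells, but muscle stem cells are a separate lineage. Staufen1 is a double-stranded RNA binding protein. The comparison of genotypes asks which transcripts are recovered with it.

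Library totals ran from 3091302 counts in knockout 2 to 105473455 in wild type 1, and both knockout libraries were shallower than every wild type library. CPM below stands for counts per 1000000 counts of the library, whose total was scaled with TMM factors. Stau1 itself reached 104, 127 and 118 CPM under the wild type label, and 109 and 111 CPM under the knockout label. The genotype difference in log2 units was 0.08 (standard error 0.19, edgeR adjusted p = 0.847), so its counts did not separate the labels. Every direction below therefore rests on the labels. All 10 listed markers of muscle stem cells, Pax7 and Myf5 among them, were measured and none was at 0 in any library. That held for all but 16 of the 11194 genes, so it sets neither this list nor those below apart. Their summed level was 6141 to 6685 CPM in wild type and 3823 to 4133 CPM in knockout, and the sum holds unequal parts: Sdc4 had means of 2016 and 1052 CPM, whereas Pax7 had 239 and 216 CPM and overlapped between the groups. A count mixes the number of cells of a type, the RNA per cell and its recovery by the antibody, and in these bulk samples fewer cells and less RNA per cell cannot be told apart.

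The 10 mural cell markers were recovered in both genotypes, as were nearly all genes, and none of the 10 passed the test for a genotype difference. Together they had 1361, 1087 and 1331 CPM in wild type 1 to 3 and 1480 and 1635 CPM in knockout 1 and 2. The means were 1260 ± 151 CPM (SD, n = 3) and 1557 ± 110 CPM (SD, n = 2), which is 0.126% and 0.156% of the TMM-scaled library totals. Every knockout library thus lay above every wild type library in the summed level, by a ratio of means of 1.24. Acta2 alone made up 37.1% to 46.8% of the sum in each library, and Tagln followed with 17.6% to 21.6% and Rgs5 with up to 21.6%. The sum therefore describes mostly these 3 genes.

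**Figure D1:**
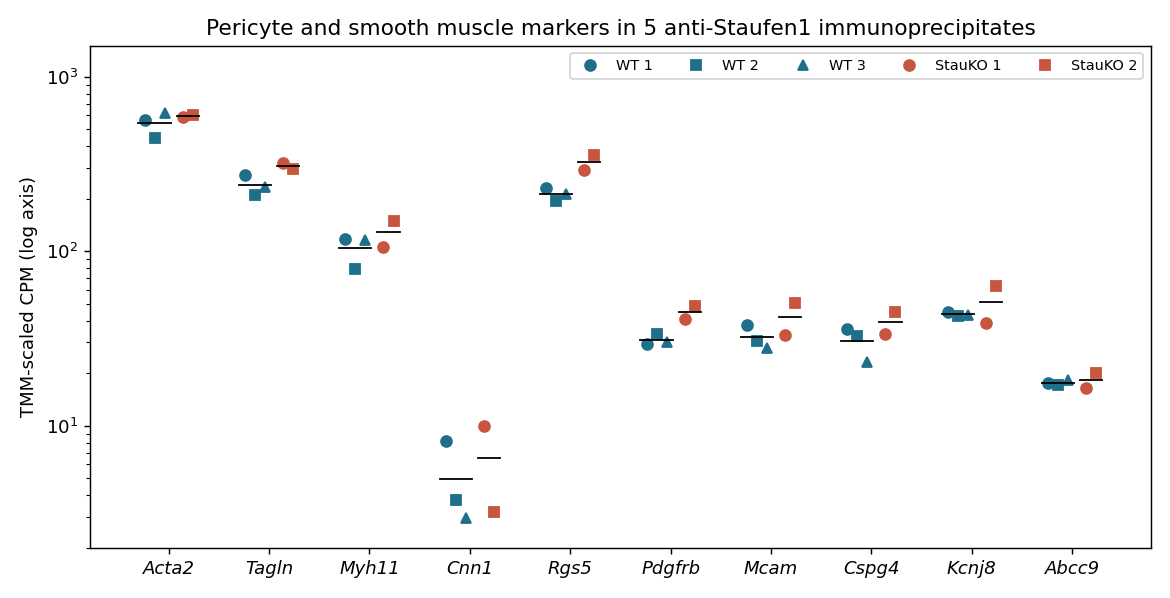
TMM-scaled CPM of each marker (log axis) in wild type 1 to 3 (blue) and knockout 1 and 2 (red), 1 point per library, with a black line at each group mean. Contractile genes stand on the left, genes of pericyte signalling and surface in the middle and the channel genes on the right. The groups lie apart for Tagln, Rgs5 and Pdgfrb and overlap for the other 7.

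To set different genes side by side, CPM was divided by the gene length in kilobases that the table gives. The division assumes even read coverage along each gene, which was not checked for these oligo(dT)-primed libraries. The order below depends on it: undivided, Myh11 had a wild type mean of 104 CPM and stood above Kcnj8 with 43.5 CPM. Acta2 had 306 ± 51.1 CPM per kilobase in wild type (SD, n = 3) and 336 ± 7.44 in knockout (SD, n = 2), the highest of the 10. Tagln followed with 151 ± 20.0 and 193 ± 11.2, and Rgs5 with 46.6 ± 4.21 and 71.1 ± 9.47. Kcnj8 (19.9 ± 0.522 in wild type), Myh11 (15.7 ± 3.24), Mcam (9.57 ± 1.54), Pdgfrb (5.66 ± 0.404) and Cspg4 (3.78 ± 0.814) came next. Abcc9 (2.34 ± 0.0737) and Cnn1 (2.09 ± 1.18) were the lowest. Each of the first 8 genes exceeded the next gene of this order in 5 of 5 libraries, and their wild type ranges did not overlap. Abcc9 and Cnn1 overlapped, with Abcc9 higher in 3 of 5 libraries. The order was the same in the knockout means apart from an exchange of these last 2 genes.

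**Figure D2:**
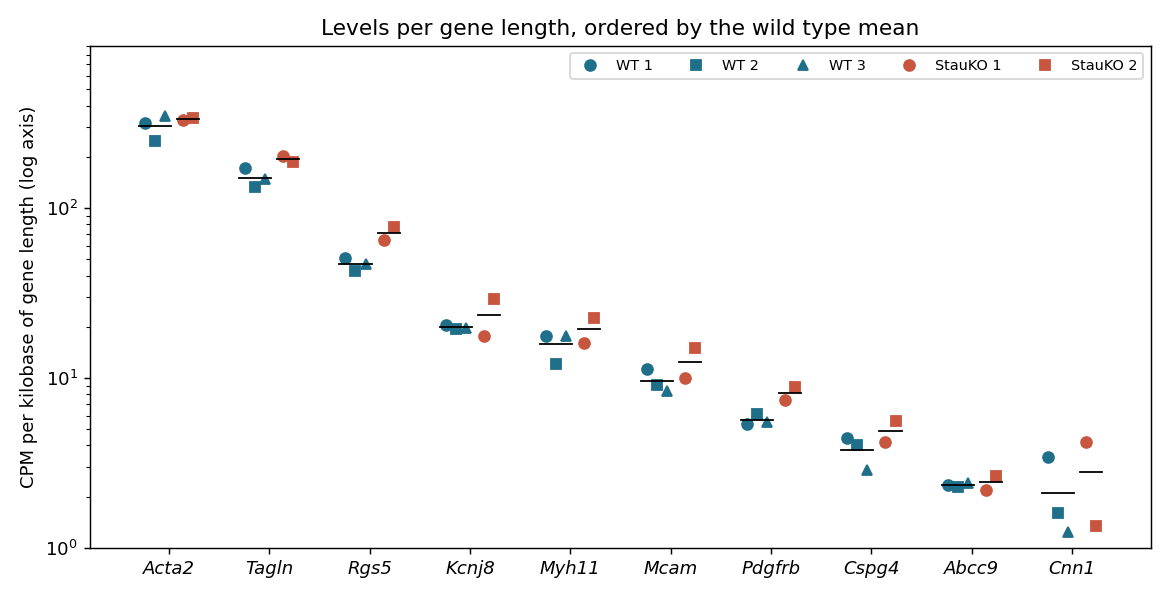
CPM per kilobase of gene length (log axis) of the 10 markers, ordered by the wild type mean, with 1 point per library (blue wild type, red knockout) and a black line at each group mean. The order from Acta2 down to Abcc9 was kept in every library, while Cnn1 spread from 1.24 to 4.20.

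Acta2 encodes the smooth muscle alpha-actin of contractile mural cells (chromosome 19, 34241090 to 34255336, minus strand, mm10). It had 567, 445 and 623 CPM in wild type 1 to 3 and 588 and 607 CPM in knockout 1 and 2. The knockout values fell inside the wild type range. The log2 fold change, always wild type over knockout, came to -0.13 (standard error 0.19, 95% interval -0.54 to 0.27, adjusted p = 0.744, edgeR quasi-likelihood test). The bounds of that interval correspond to a level 1.45-fold higher and 1.21-fold lower in knockout.

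The actins are near-identical as proteins and similar in coding sequence, so some reads may be split between Acta2 and its relatives. Acta1, the actin of skeletal muscle fibres, had 299, 257 and 317 CPM in wild type 1 to 3 and 199 and 1340 CPM in knockout 1 and 2. The values of Acta2 in both knockout libraries differed by 1.03-fold. How reads were shared between the actins was not tested. Actc1, the cardiac actin, stayed between 0.733 and 9.23 CPM. Of the nonmuscle actins, Actb had 1302 ± 156 CPM in wild type and 1424 ± 273 CPM in knockout, and its groups overlapped. Actg1 had 1089 ± 160 against 718 ± 246 CPM, with wild type above knockout in every library, and neither passed. Actg2, the other smooth muscle actin, was not analysed here.

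Tagln encodes transgelin, a calponin-related protein that binds actin filaments in smooth muscle (chromosome 9, 45929628 to 45936058, minus strand, mm10). Its levels were 273, 210 and 234 CPM in wild type 1 to 3 and 319 and 294 CPM in knockout 1 and 2. Both knockout libraries were above every wild type library. The means of 239 ± 31.8 CPM (SD, n = 3) and 307 ± 17.7 CPM (SD, n = 2) gave a log2 fold change of -0.36 (standard error 0.18, edgeR adjusted p = 0.288), which did not pass. Tagln shares 65 exon bases, 4.10% of its length, with Pcsk7, a proprotein convertase gene. Per kilobase, Pcsk7 had means of 5.43 CPM in wild type and 6.16 CPM in knockout, and Tagln 151 and 193 CPM.

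Myh11 encodes the smooth muscle myosin heavy chain, the most restricted of the contractile markers (chromosome 16, 14194527 to 14291408, minus strand, mm10). It had 117, 79.5 and 116 CPM in wild type 1 to 3 and 106 and 150 CPM in knockout 1 and 2. Knockout 1 lay within the wild type range and knockout 2 above it. The log2 fold change was -0.29 (standard error 0.23, edgeR adjusted p = 0.512). Of the nonmuscle myosins, Myh9 had 205 ± 24.9 against 240 ± 23.7 CPM and Myh10 63.4 ± 6.01 against 65.3 ± 5.98 CPM, and neither passed.

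Cnn1, the smooth muscle calponin that restrains actomyosin (chromosome 9, 22099281 to 22109630, plus strand, mm10), was the scarcest and the least even of the 10. Its levels were 8.14, 3.77 and 2.94 CPM in wild type 1 to 3 and 9.95 and 3.18 CPM in knockout 1 and 2, so the groups overlapped across a 3.38-fold range. Knockout 2 held 10 counts of it, with a 95% exact Poisson interval of 1.53 to 5.85 CPM that covers counting error only. Knockout 1, with 95 counts, lay outside that interval. The log2 fold change was -0.47 (standard error 0.59, edgeR adjusted p = 0.706), and it turned to 0.64 without knockout 1. The table had been filtered before deposit so that the third-highest CPM of a gene was never below 3.02, and that of Cnn1 was 3.77, close to the edge. Of the related calponins, Cnn2 had 49.1 ± 12.2 CPM in wild type and 45.7 ± 8.23 CPM in knockout, with overlap. Cnn3 had 975 ± 176 against 696 ± 26.8 CPM, with the groups apart, and neither passed.

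Rgs5 encodes a GTPase-activating regulator of G-protein signalling and is a classical pericyte marker (chromosome 1, 169655501 to 169695813, plus strand, mm10). It had 231, 193 and 213 CPM in wild type 1 to 3 and 293 and 354 CPM in knockout 1 and 2. Both knockout libraries lay above every wild type library, with a ratio of 1.52 between the groups. The log2 fold change was -0.61 (standard error 0.18, 95% interval -0.997 to -0.215), the largest in size among the 10. Its unadjusted p was 0.00499 and its adjusted p 0.0880 in edgeR's quasi-likelihood test, so it did not pass. With DESeq2 the adjusted p was 0.0201, past the threshold, and over all alternatives it ran up to 0.330. Rgs4, a related regulator whose gene lies 45664 bases away, went the other way, with 102 ± 10.3 against 42.9 ± 28.0 CPM. It did not pass either (log2 fold change 1.30, SE 0.33, edgeR adjusted p = 0.0544).

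Pdgfrb encodes the receptor for PDGF-B that recruits and keeps pericytes on capillaries (chromosome 18, 61045150 to 61085061, plus strand, mm10). It had 29.3, 33.5 and 30.2 CPM in wild type 1 to 3 and 40.7 and 48.4 CPM in knockout 1 and 2. The groups did not overlap. The log2 fold change was -0.52 (standard error 0.23), with an unadjusted p of 0.0409 and an adjusted p of 0.221 in edgeR's quasi-likelihood test. Over the alternatives its adjusted p ran from 0.172 to 0.516.

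Mcam and Cspg4 encode surface proteins, the melanoma cell adhesion molecule and a chondroitin sulfate proteoglycan, that mark pericytes but also occur on other cells. Mcam (chromosome 9, 44134469 to 44142727, plus strand, mm10) had 37.8, 30.5 and 27.9 CPM in wild type and 33.3 and 50.3 CPM in knockout. Cspg4 (chromosome 9, 56865104 to 56899870, plus strand, mm10) had 35.7, 32.5 and 23.1 CPM in wild type and 33.6 and 44.9 CPM in knockout. In both genes knockout 2 was the highest library and knockout 1 lay within the wild type range. The log2 fold changes were -0.37 (standard error 0.26, edgeR adjusted p = 0.461) and -0.36 (standard error 0.27, edgeR adjusted p = 0.487).

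Kcnj8 and Abcc9 encode the pore and the regulatory subunit of the ATP-sensitive potassium channel of mural cells. Their genes are neighbours on chromosome 6 (142564939 to 142571356 and 142587862 to 142702274, both minus strand, mm10), 16506 bases apart. Kcnj8 had 44.8, 42.5 and 43.2 CPM in wild type 1 to 3 and 38.7 and 63.3 CPM in knockout 1 and 2. The wild type libraries were nearly equal, and the knockout libraries fell on either side of them. Abcc9 had 17.6, 17.1 and 18.2 CPM in wild type and 16.5 and 20.0 CPM in knockout, the narrowest range of the 10 at 1.21-fold. The log2 fold changes were -0.21 (standard error 0.24, edgeR adjusted p = 0.673) and -0.04 (standard error 0.30, edgeR adjusted p = 0.957). Per kilobase, Kcnj8 stood 8.07 to 10.9 times above Abcc9 in the 5 libraries. Undivided, their wild type means were 43.5 and 17.6 CPM, so the size of this gap depends on the division by length.

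**Figure D3:**
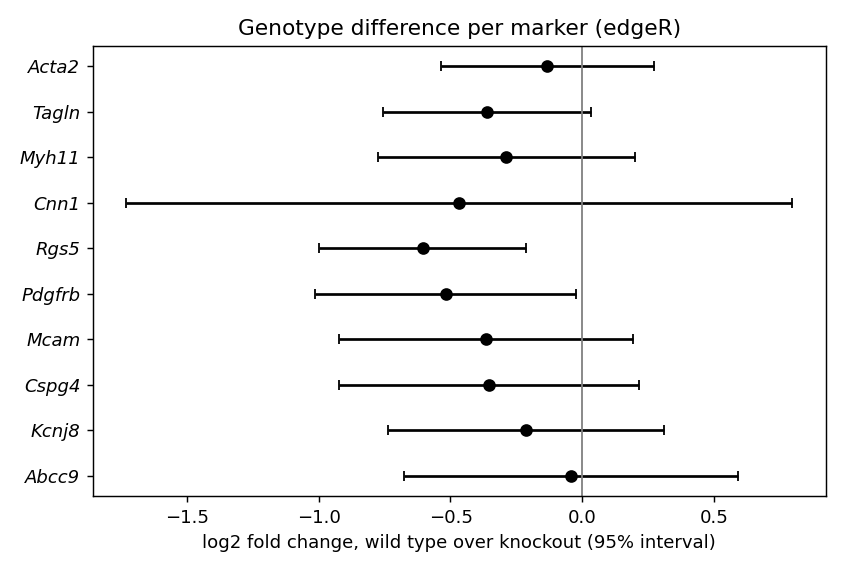
Log2 fold change of wild type over knockout for each marker, with its 95% interval from the edgeR fit, not adjusted for the number of genes. All 10 points lie below 0, from -0.04 for Abcc9 to -0.61 for Rgs5, and the interval leaves out 0 for Rgs5 and Pdgfrb alone.

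Counted over the set, 0 of the 10 markers passed edgeR's adjusted threshold of 0.05, against 2.05% of all genes. 2 of the 10, Rgs5 and Pdgfrb, had an unadjusted p under 0.05, against 20.4% of all genes, a share near the background. DESeq2 called 1 of the 10, Rgs5, against 8.37% of the genes it tested, and limma-voom called 0 against 0.197%. The groups did not overlap for 3 of 10 (Tagln, Rgs5 and Pdgfrb), all 3 higher in knockout, against 18.1% of all genes in that direction and 38.4% in either. The median log2 fold change of the 10 was -0.36, from -0.61 to -0.04, beside 0.00 over all genes. All 10 values were below 0, against 49.7% of all genes. The sign turned for Abcc9 without knockout 2, with limma-voom and after thinning all libraries to the shallowest, for Kcnj8 without knockout 2 and for Cnn1 without knockout 1. The 10 genes share the same 5 libraries, so their signs are not separate observations.

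By role, the 4 contractile genes had a median log2 fold change of -0.33 and a summed level of 738 to 976 CPM in wild type and 1024 to 1054 CPM in knockout. The 4 genes of pericyte signalling and surface (Rgs5, Pdgfrb, Mcam and Cspg4) had a median of -0.44, with 289 to 334 CPM against 400 to 497 CPM. The channel pair had a median of -0.13, with 59.6 to 62.4 CPM against 55.3 and 83.3 CPM. The sums lay apart between genotypes for the first 2 roles and overlapped for the channel pair. Gene by gene, 3 of the 4 contractile genes overlapped, Acta2 among them, and 2 of the 4 pericyte genes did. Of all single genes, 38.4% had groups apart in either direction. Differences between the roles were not tested.

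The libraries of a genotype were not alike in these genes. Knockout 2 exceeded knockout 1 for 8 of the 10, the exceptions being Tagln and Cnn1, where 50.6% of all genes did so. It was the highest of all 5 libraries for 7 of the 10, against 26.5% of all genes. Within wild type, library 2 was the lowest for 6 of 10, against 34.8% of all genes. The median log2 fold change of the 10 was -0.13 without knockout 2 and -0.53 without knockout 1. Knockout 2 is also the shallowest library, and the part of depth in this was not tested.

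Each other marker was also set against Acta2 within its library. Tagln stood at 0.421 to 0.540 of the Acta2 level per kilobase in wild type and at 0.544 and 0.610 in knockout. Rgs5 stood at 0.134 to 0.170 in wild type and at 0.195 and 0.228 in knockout. These 2 of the 9 ratios did not overlap between genotypes, against 32.7% of all genes set over Acta2 in the same way. The other 7 overlapped. Myh11 over Acta2 was 0.0480 to 0.0554 in wild type and 0.0485 and 0.0663 in knockout. Such ratios show unequal values within a library and do not say which of both genes differed.

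Markers of other cell types differed between the same libraries. In the counts that follow, the edgeR test called 1% of all genes higher in knockout and 1.05% higher in wild type. Of 12 endothelial markers, which belong to the cells that mural cells enclose, 4 were higher in knockout (Fabp4, Egfl7, Flt1 and Emcn) and 8 did not pass. Like all but 16 of the 11194 genes, none of the 12 was at 0 in any library. All 12 of their log2 fold changes were below 0, against 49.7% of all genes, with a median of -0.77. Both knockout libraries lay above every wild type library for 11 of the 12, against 18.1% of all genes. An unadjusted edgeR p under 0.05 was also found for 11 of the 12, against 20.4% of all genes. The summed level of the 12 was 1052 to 1383 CPM in wild type and 2112 to 2554 CPM in knockout. Fabp4 was the largest part of it, with means of 356 CPM in wild type and 903 CPM in knockout. It therefore weighs on the ratio that follows as well. The sum of the 10 mural cell markers was 0.984 to 1.16 times that of the endothelial markers in wild type and 0.579 and 0.774 times in knockout. Over the sum of the muscle stem cell markers, which Sdc4 and other abundant genes weigh on more than Pax7, it was 0.177 to 0.213 in wild type and 0.387 and 0.396 in knockout. Of those 10 stem cell markers, 2 (Myod1 and Sdc4) were higher in wild type by the same test and 8 did not pass. All 10 of their log2 fold changes were above 0, with a median of 0.57. Every wild type library lay above both knockout libraries for 8 of the 10, against 20.4% of all genes, and 2 overlapped. The part of these differences in the values of the mural cell markers was not tested.

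Of 4 measured red blood cell genes, 3 were higher in knockout, with a sum of 216 to 295 CPM in wild type and 471 and 805 CPM in knockout, and none was at 0. Counting can split reads between the near-identical globin copies. Of 10 muscle fibre genes 0 passed. Their sum was 762 to 910 CPM in wild type, 615 CPM in knockout 1 and 2850 CPM in knockout 2, the library in which 7 of the mural cell markers were highest. Of 10 markers of fibro-adipogenic progenitors, the matrix-producing cells of muscle, Ly6a was higher in knockout and 9 did not pass. The sums were 2863 to 4438 CPM in wild type and 2934 to 2985 CPM in knockout. Gsn alone had means of 2758 and 2061 CPM, so these sums describe mostly that gene. The values of 7 of these 10 lay on the wild type side, with a median log2 fold change of 0.38. Of 7 myelin and Schwann cell genes Mbp was higher in knockout, of 5 tenocyte genes Mkx was, and of 7 macrophage and leukocyte genes none passed. No gene of these lists was at 0, which held for nearly all genes, and the part of any of these lists was not tested.

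**Figure D4:**
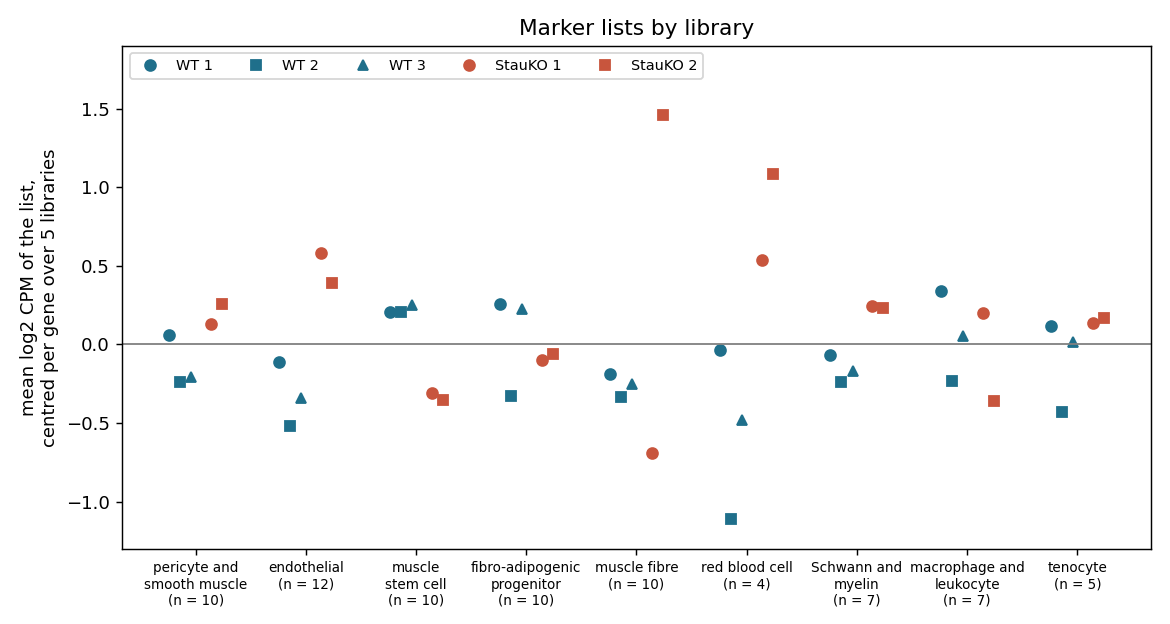
Mean log2 CPM of each marker list, centred per gene over the 5 libraries, with 1 point per library (blue wild type, red knockout) and the number of genes measured under each name. The mural cell markers ran from -0.24 to 0.06 in wild type and were 0.13 and 0.26 in knockout, and the endothelial markers from -0.52 to -0.11 and at 0.58 and 0.39. Muscle stem cell markers lay the other way, and muscle fibre genes were high in knockout 2 alone.

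The wider machinery of mural cells was followed in 5 lists that leave out the 10 markers and together held 99 measured genes. By edgeR's adjusted p, 1 of the 99 (Tgfbr3) was higher in wild type, against 1.05% of all genes, 1 (Sparcl1) was higher in knockout, against 1%, and 97 did not pass. Their median log2 fold change was -0.08, from -1.42 to 1.30, with 54 values below 0 and 45 above. 40 of the 99 had an unadjusted p under 0.05, against 20.4% of all genes. The wild type libraries all lay above the knockout libraries for 22 of the 99 and all below them for 26, against 20.4% and 18.1% of all genes. These genes spread to both sides of 0. Many of them are also expressed outside mural cells: Itga7 and Des are among the muscle stem cell markers, Tek and Eng among the endothelial ones and Pdgfra among those of fibro-adipogenic progenitors.

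The 2 genes that passed lie in different lists. Tgfbr3 encodes betaglycan, a coreceptor for TGF-beta, and had 358, 225 and 278 CPM in wild type 1 to 3 and 168 and 130 CPM in knockout 1 and 2. The groups were apart, with a log2 fold change of 0.94 (standard error 0.22, edgeR adjusted p = 0.0477). That call was lost with RLE, upper-quartile or no scaling factors, with limma-voom, and without wild type 1, wild type 3, knockout 1 or knockout 2, where the adjusted p reached 0.203 at most. Sparcl1, a secreted matricellular protein of vessels and other tissues, had 88.2, 67.1 and 92.0 CPM in wild type and 219 and 153 CPM in knockout. Its log2 fold change was -1.18 (standard error 0.21, edgeR adjusted p = 0.0152), and the call was lost with limma-voom (adjusted p = 0.0682) and without wild type 3 (0.0555) or knockout 1 (0.0817).

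Of 34 contractile and cytoskeletal genes 0 passed, with a median log2 fold change of -0.08 and 13 at an unadjusted p under 0.05. The share of all genes under that p, here and for the next 4 lists, was 20.4%. The smallest p belonged to Csrp2, a LIM protein of smooth muscle, with 38.8 ± 6.39 CPM in wild type (SD, n = 3) and 68.9 ± 7.51 CPM in knockout (SD, n = 2). Tpm2, a tropomyosin, had 77.8 ± 15.3 against 141 ± 58.2 CPM. Tagln2, the broadly expressed relative of Tagln, had the opposite order, with 876 ± 94.3 against 567 ± 74.2 CPM. Of 18 contraction signalling genes 0 passed as well, with a median of -0.21 and 7 at an unadjusted p under 0.05. Ppp1r12a, the targeting subunit of myosin phosphatase, had 124 ± 39.0 against 221 ± 5.88 CPM, and the small GTPase Rhoa had 227 ± 14.9 against 157 ± 11.4 CPM. Their edgeR adjusted p-values were 0.0706 and 0.120.

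Of 12 transcription factors and Notch pathway genes of mural cells 0 passed, with a median of -0.01 and 4 at an unadjusted p under 0.05. Notch3, the Notch receptor of mural cells that is also expressed by muscle stem cells, had 314 ± 14.3 against 236 ± 14.8 CPM. Its target Heyl had 211 ± 9.01 against 160 ± 7.16 CPM, and the mesenchymal factor Prrx1 45.4 ± 3.82 against 30.3 ± 6.23 CPM. All 3 had higher values in wild type, with edgeR adjusted p-values of 0.207, 0.226 and 0.184. Of 16 PDGF and mural recruitment genes 1 passed (Tgfbr3, above), with a median of -0.10 and 9 at an unadjusted p under 0.05. Eng and Tek, receptors of the endothelium, had 106 ± 16.7 against 181 ± 12.2 CPM and 74.6 ± 7.34 against 120 ± 16.2 CPM, with edgeR adjusted p-values of 0.0544 and 0.0753. Of 19 other pericyte-enriched genes 1 passed (Sparcl1, above), with a median of -0.15 and 7 at an unadjusted p under 0.05. The matrix proteoglycan Bgn had 204 ± 22.4 against 127 ± 1.79 CPM. Cox4i2, a hypoxia-linked cytochrome oxidase subunit, had 8.82 ± 0.946 against 22.03 ± 13.4 CPM, and neither passed.

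**Figure D5:**
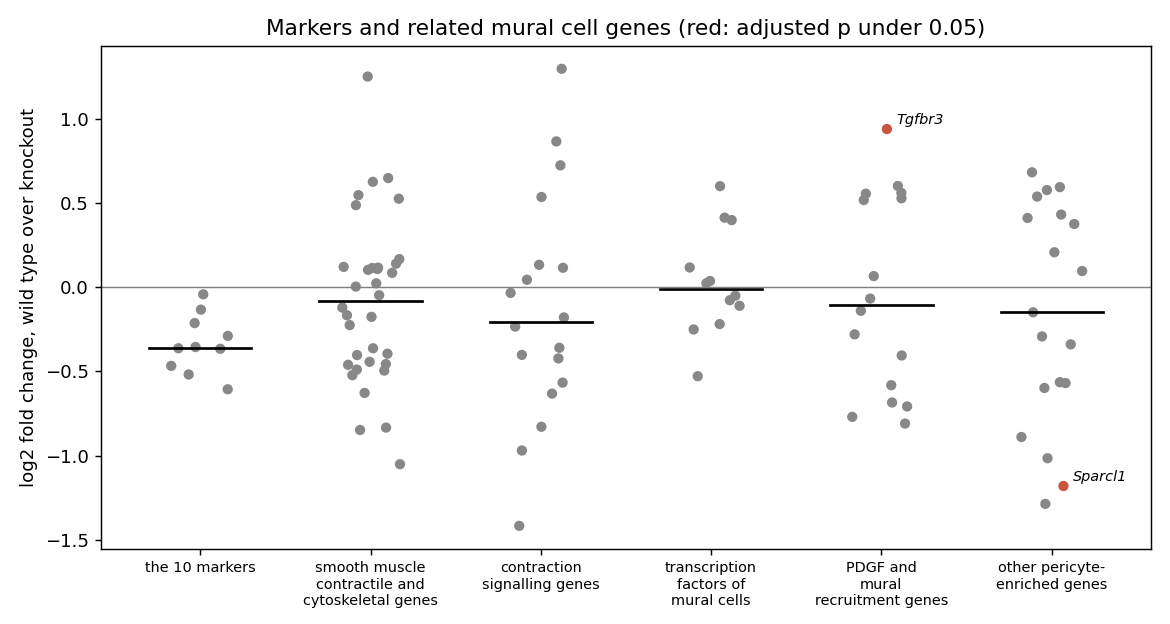
Log2 fold change of wild type over knockout for the 10 markers and for the 5 lists of related genes, 1 point per gene, with a black line at each median and red for an edgeR adjusted p under 0.05. The markers lie between -0.61 and -0.04, and the related genes scatter from -1.42 to 1.30, with Tgfbr3 and Sparcl1 the 2 that passed.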

How the data were processed

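RNA precipitated with an anti-Staufen1 antibody was copied with oligo(dT) priming, amplified and sequenced as 101 bp paired reads, per the labels' protocols. The input of 100 pg that they give is of cDNA. STAR, Subread's featureCounts, Trim Galore and edgeR are named, with build mm10, per the submitters' processing notes. Neither their versions nor the use of strand is stated, so reads of overlapping genes are uncertain. The authors deposited raw counts per gene, with gene length and exon coordinates, filtered on expression. Members, lists and tests were chosen with earlier results of these data known.

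Counts were analysed in R 4.3.3 with edgeR 4.0.16 (filterByExpr, which removed 0 genes, TMM, and for genotype the quasi-likelihood F-test of glmQLFTest, two-sided, over all 5 libraries), with Benjamini-Hochberg adjustment over 11194 genes. The standard error comes from the coefficient and its F statistic. The script was tested on simulated data. DESeq2 1.42.0, limma-voom (limma 3.58.1), other scaling factors, a filter at a mean of 10 CPM, thinning, a replicate block and leaving out each library were alternatives. Named genes are the 10 members, Stau1 and, per list of related genes, those called and the smallest p up to 3. Near relatives and overlapping genes of members (Acta1, Actc1, Actb, Actg1, Myh9, Myh10, Cnn2, Cnn3, Pcsk7) were named outside that rule, after their values were seen. So were called cell type markers, with Pax7 and Myf5. Replicates differed by more than sampling noise (chi-square per degree of freedom 17.7 to 258 over 4 pairs). Overlaps were looked up in RefSeq for GRCm38.p6, where 10824 of 10826 Entrez identifiers matched.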

Additional observations from a re-analysis of the deposited data

How the results depend on the processing

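With edgeR, 0 of the 10 markers were called under every scaling, filter, thinning, block and left-out library tried, and limma-voom called 0. DESeq2 called 1 (Rgs5). Cnn1 had no value under the filter at a mean of 10 CPM, which it did not reach. Of the 99 related genes, 2 were called as reported. That count was 1 with RLE, with upper-quartile and with total-count scaling, 0 with limma-voom, 4 with the stricter filter, 5 after thinning and 15 with DESeq2 (6 higher in wild type, 9 in knockout), where DESeq2 called 8.37% of all genes it tested. Leaving out 1 library gave 0 to 4, with 0 without wild type 3 and 4 without wild type 2. With the replicate number as a block, the count of related genes called was 9 and that of markers 0. Of all genes, limma-voom called 0.197%. For the other settings the share of all genes called is not given here. Their counts therefore do not tell whether the related genes moved more than other genes. The labels do not say that a replicate number marks a shared animal or day, so the block is not used. Deviations of same-numbered samples correlated at 0.05 and 0.04 for numbers 1 and 2. With only 2 knockout libraries, the deviations of 1 mirror those of the other, so these values do not decide on pairing. The median log2 fold change of the markers was -0.25 to -0.40 under the scaling, tool, filter, thinning and block alternatives. Leaving out 1 library gave -0.53 to -0.13. Cnn1 rested on 10 counts in knockout 2, and a filter that needs 3 libraries limits what could be seen in knockout alone.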
